A study of Mus musculus with 8 samples.

Results

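Embryos of the mouse strain C57BL/6 were compared at 2 stages of cleavage, the 2-cell stage (libraries labelled 2C) and the 8-cell stage (labelled 8C). Each stage had 2 Smart-seq libraries, a method that makes cDNA along the whole transcript and amplifies it. These 4 libraries were chosen by their labels out of 8 in the series, and all 24732 genes of the expression table belong to the comparison. The labels gave both groups the same strain and a passage number of 1, and named no treatment, agent or allele for either. The labels gave neither the number of embryos pooled into a library nor whether the libraries of a stage came from separate collections. The other 4 libraries (CX22 and CX45, names that the labels do not spell out) entered the estimate of the spread between libraries and the choice of genes to test. Through that choice, 128 of the genes tested were listed at 0 in all 4 libraries of 2C and 8C, and none of them was called. Values are FPKM, sequenced fragments scaled to the length of the transcript and to the number mapped in the library, so each value is a share of its library and not an amount per embryo. In whole embryos, fewer cells of a type and less RNA per cell cannot be told apart.

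As background, the egg is loaded during oogenesis with mRNA that is stored, translated on a schedule and then destroyed. In the mouse the embryo's own genome begins to be transcribed strongly in the 2-cell embryo, so a 2-cell embryo holds a mixture of remaining maternal and early embryonic RNA. By the 8-cell stage most maternal mRNA is gone, blastomeres flatten against each other in compaction and take on an outer and an inner face, and the machinery for growth is rebuilt from embryonic transcripts.

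The change between the stages was broad. Of 11832 genes tested, 4382 (37.0%) were called, 1938 (16.4%) risen and 2444 (20.7%) fallen from 2C to 8C. Calling a gene took an adjusted p under 0.05 (limma, Benjamini-Hochberg) and a log2 fold change of at least 1 on the log2(FPKM + 1) scale, a scale that understates the change of low genes. The median log2 fold change of all genes tested was -0.03. Values of the 2C libraries lay wholly above or below those of the 8C libraries at 10629 genes (89.8%). Most genes met this, so stages that do not overlap do little by themselves to set a gene apart. The count leaned on having both 8C libraries: 1487 genes were called without 8C replicate 1 and 1411 without 8C replicate 2, of which 1470 and 1394 were among the 4382 with the same direction. Of the named genes that were called, 174 in number, 124 kept the call without 8C replicate 1 and 123 without replicate 2, with the same sign in all 174 both times. Counts of gene lists are therefore given both ways, the counts with an 8C library left out standing in brackets, and are to be read against the 16.4% risen and 20.7% fallen over all genes tested. In each of the 5 lists with 0 calls in one direction from both 8C libraries, limma's unadjusted p was also under 0.05 for 0 members in that direction. The spread was shared with the CX22 and CX45 libraries, so a gene that varied there has a wide error here, and 351 genes with stages that did not overlap and at least an 8-fold difference were not called. A gene listed at 0 in a whole stage accounted for 865 of the calls. Such a 0 can be a failed estimate, since Gapdh, used by nearly every cell, was listed at 0 or 0.183 FPKM in the 2C libraries and at 0 in both 8C libraries.

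**Figure D1:**
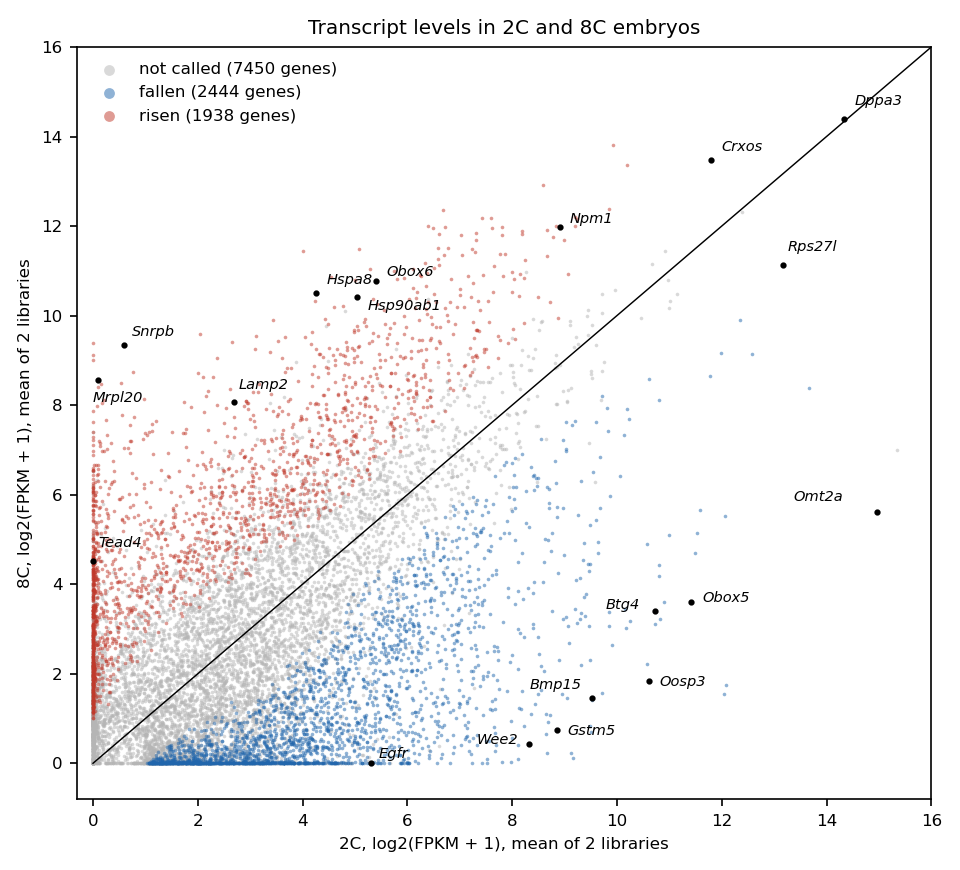
Mean FPKM of each tested gene in the 2C libraries (x axis) and in the 8C libraries (y axis), both as log2(FPKM + 1) with 2 libraries a stage. Red points are the 1938 risen genes, blue the 2444 fallen and grey the 7450 that were not called, the line marks equal levels, and named points include Dppa3 on the line and Omt2a far below it.

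The 2C libraries were close copies of each other. Across 5377 genes with usable depth, the median chi-square between them was 1.33 times its chance value, against 39.55 for the 8C libraries, and their mean entered the fit as 1 sample. The labels name no separate cultures or litters, so p-values measure only how these samples spread, and that spread may be technical. Estimated depth was 11960000 and 12770000 fragments in 2C and 17810000 and 20270000 in 8C. There, 3 fragments of a 2 kb transcript make 0.125 and 0.117 FPKM in 2C and 0.084 and 0.074 in 8C, a limit that covers counting error only. Of 12 marker genes of cumulus and granulosa cells, the somatic cells around the egg, 5 were tested and 2 fell (0 risen and 1 fallen with either 8C library left out), and the list summed to between 13.1 and 13.7 FPKM in 2C and 11.1 and 19.3 in 8C. Their part in the results was not tested. Markers of the later cleavage stages rose in 7 of 7 cases (5 risen and 0 fallen without 8C replicate 1, 4 and 0 without replicate 2), and markers of the 2-cell stage fell in 4 of 7 (0 risen and 1 fallen with either 8C library left out). The 2-cell marker Tdpoz4 stood the other way, at 0.972 and 0.699 FPKM in 2C and 9.15 and 9.57 in 8C, and was not called (adjusted p = 0.138).

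At fixed levels of FPKM, fewer genes stood high in 2C than in 8C, and more genes were detected there in all. The libraries summed to 554517 and 472707 FPKM in 2C and 693091 and 669695 in 8C, so a fixed level is not the same share of each library. Between 8903 and 8918 genes stood at 1 FPKM or more in the 2C libraries against 8142 to 8189 in 8C, while genes at 100 FPKM or more numbered 712 to 714 in 2C and 939 to 954 in 8C. In all, 369 genes were at 10 FPKM or more in both 8C libraries and under 1 in both 2C libraries, of which 319 were called risen. The reverse pattern held for 582 genes, of which 490 were called fallen. Cytosolic ribosomal protein genes took 3.33% and 3.89% of the summed FPKM in 2C and 22.2% and 22.1% in 8C. The list of zona pellucida, oocyte secreted and oocyte growth factor genes took 21.9% and 8.59% in 2C and 0.0408% and 0.0372% in 8C. The difference between the 2C libraries lay in a single pair of near-identical oocyte genes, whose reads the counting could split: Omt2b was listed at 83519 FPKM in 2C replicate 1 and at 0 in replicate 2, while Omt2a stood at 30570.3 and 33189. Without that pair the list took 1.68% in each 2C library. Also without it, the 100 highest genes took 41.3% of the summed FPKM in each 2C library and 45.4% and 43.1% in 8C. The 10 highest genes took 17.4% and 17.3% in 2C and 14.6% and 12.2% in 8C.

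By the fixed rule for the extremes, the genes that fell furthest were Omt2a, Oosp3, Oosp2, Ifitm3, Tcl1b3, Pate14, Bmp15, Gstm5, Obox5, Ifitm6, Fam229b and Arhgap20os. Omt2a (chr9:78159779-78162604, mm9) stood at 30570.3 and 33189 FPKM in 2C and 50.7 and 45.6 in 8C, a 662-fold lower mean (log2 fold change -9.34 ± 0.32 SE, limma adjusted p = 0.00201). Pate14 went from 406 and 402 FPKM to 0.271 and 0.0796, and the stages did not overlap. The genes that rose furthest were Ak6, an adenylate kinase of the nucleus whose locus overlaps that of Taf9, Rbis, a ribosome biogenesis factor, Snrpb, Mrpl20, Znrd2, Sycn, Ifitm2, Bhmt, Eif2b3, Syngr1, Fbp2 and Prelid2. Mrpl20 (chr4:155176987-155182940, mm9), a protein of the mitochondrial ribosome, stood at 0.0736 and 0.0689 FPKM in 2C and 396 and 362 in 8C (log2 fold change 8.47 ± 0.28, adjusted p = 0.00201). Its 2C values lay at the level of fewer than 3 fragments. Bhmt, which remethylates homocysteine with betaine, went from 0.442 and 0.940 to 345 and 505 FPKM, and Fbp2, a fructose bisphosphatase, from 0.129 and 0.120 to 297 and 232. Neighbours of one family moved in opposite directions: Ifitm3 fell from 705 and 720.2 to 1.55 and 0 FPKM and Ifitm2 rose from 0.265 and 0.621 to 401 and 319. Ifitm genes encode similar membrane proteins, and reads of near-identical stretches could be split between them.

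**Figure D2:**
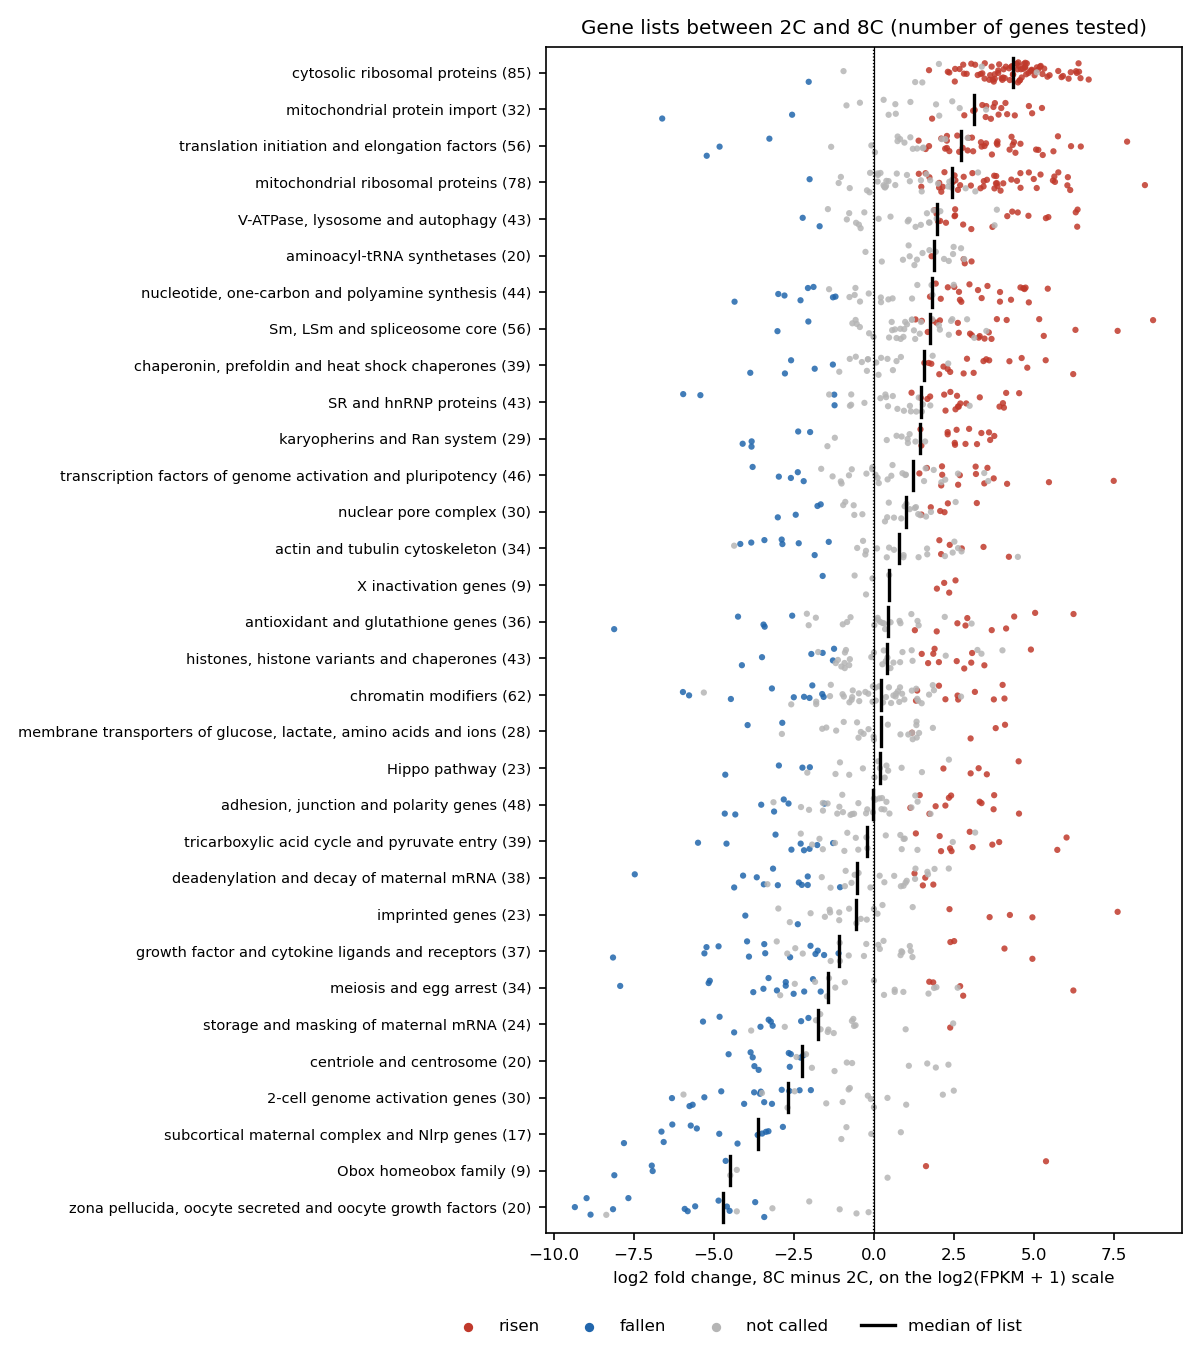
Log2 fold change, 8C minus 2C, of every tested member of 32 gene lists (x axis, log2(FPKM + 1) scale), with one row per list, the number tested in brackets, risen genes in red, fallen in blue, not called in grey and the list's median as a black bar. The lists run from the list with the oocyte secreted genes (median -4.72) at the bottom to cytosolic ribosomal proteins (median 4.34) at the top. The dotted line marks the median of all genes.

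The list of egg coat, oocyte secreted and oocyte growth factor genes also held other oocyte genes, such as the Oog genes, Kit, Nobox and Taf4b. Of its 20 tested genes, 13 fell and 0 rose (0 risen and 10 fallen with either 8C library left out). The median log2 fold change was -4.72 against -0.03 for all genes. Oosp1, which encodes a protein secreted by the oocyte, stood at 1693 and 1700.2 FPKM in 2C and 5.51 and 9.66 in 8C (224-fold lower, log2 fold change -7.67 ± 0.44, adjusted p = 0.00201). Bmp15 and Gdf9 are growth factors of the TGF-beta family by which the oocyte directs its follicle. Bmp15 went from 749.8 and 724 FPKM in 2C to 0.808 and 2.72 in 8C, and Gdf9 from 100.1 and 103 to 3.79 and 1.64. Both fell (log2 fold change -8.15 for Bmp15 and -4.85 for Gdf9, adjusted p = 0.00411 and 0.00388). Kit, the receptor through which follicle cells support the oocyte, fell from 25.1 and 25.2 to 1.57 and 1.31 FPKM. Zp3, a zona pellucida protein, was not called, with 14.7 and 15.5 FPKM in 2C and 13.3 and 13.4 in 8C. Nobox, an oocyte transcription factor, was also not called in spite of values of 19.8 and 17.7 in 2C and 0 and 0.0260 in 8C, because its error was wide (SE 1.26, adjusted p = 0.0544).

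The subcortical maternal complex is a protein assembly under the membrane of the egg. The Nlrp genes listed with it are those of the wider Nlrp family best known from the egg, of which Nlrp5 (MATER) belongs to the complex. Of 17 tested members of the list, 13 fell and 0 rose (0 risen and 7 fallen without 8C replicate 1, 0 and 5 without replicate 2). The list's median log2 fold change was -3.63. Nlrp4e stood at 118 and 113 FPKM in 2C and 0.182 and 0.160 in 8C, and Nlrp9c at 240.0 and 239 and 2.48 and 1.69. Both were over 100-fold lower in 8C (Nlrp4e 676-fold, Nlrp9c 115-fold, adjusted p = 0.00343 and 0.00234). Nlrp4g fell from 138 and 137 to 0.105 and 0.922 FPKM. Nlrp5 itself fell from 15.03 and 15.7 to 0.677 and 0.490, and Ooep from 54.5 and 54.0 to 1.76 and 2.001. The members were not alike: Padi6 stood at 13.9 and 12.6 FPKM in 2C and 15.9 and 9.76 in 8C and Khdc3 at 16.5 and 15.5 and 28.8 and 30.2, and neither was called. The Nlrp4 and Nlrp9 genes have close copies, so the split between copies is uncertain.

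Genes for proteins that store and mask maternal mRNA fell in part. In that list 9 of 24 fell and 1 rose, with a median of -1.74 (0 risen and 2 fallen without 8C replicate 1, 0 and 3 without replicate 2). Lsm14a, a granule protein that holds mRNA out of translation, stood at 351 and 334 FPKM in 2C and 15.23 and 16.03 in 8C (21.9-fold lower, log2 fold change -4.37 ± 0.32, adjusted p = 0.00229). Dazl, which promotes translation of stored mRNA in the maturing egg, fell from 152 and 151 to 2.87 and 2.66 FPKM. Cpeb1, which controls cytoplasmic polyadenylation, fell from 11.8 and 12.04 to 0.510 and 0.273, and Igf2bp3 from 42.2 and 40.5 to 3.53 and 3.93. Ybx2, the main masking protein of germ cells, was at 21.1 and 23.7 FPKM in 2C and 0.826 and 0.473 in 8C but missed the threshold (adjusted p = 0.0564). Zar1, another factor of mRNA storage, was at 5.75 and 6.31 in 2C and 0 and 0.0392 in 8C with a wide error (SE 1.79) and was not called.

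Of 38 tested genes that remove maternal mRNA, 12 fell and 4 rose, and the median was -0.54 (0 risen and 4 fallen with either 8C library left out). Btg4 is the egg-specific adaptor that brings the CCR4-NOT deadenylase to mRNA. It stood at 1698 and 1683 FPKM in 2C and 5.07 and 13.9 in 8C, stages that did not overlap (178-fold lower, log2 fold change -7.47 ± 1.20, adjusted p = 0.0117). Cnot6l, the catalytic deadenylase of the egg, fell from 99.6 and 98.0 to 5.12 and 2.83, Cnot7, a second nuclease of the complex, from 353 and 343 to 78.0 and 86.9, and Dcp2, the decapping enzyme, from 50.8 and 50.6 to 2.42 and 1.71. Ythdf3, a reader of methylated adenosine in mRNA, fell from 82.9 and 80.9 to 5.17 and 5.97 FPKM. Its relative Ythdf2 was not called, at 45.6 and 44.9 in 2C and 261 and 208 in 8C (adjusted p = 0.0920). Pan3, of the other major deadenylase, was among the higher members at 758 and 772 in 2C against 88.6 and 64.0 in 8C and missed the threshold (adjusted p = 0.0569).

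Genes of meiosis and egg arrest split. In that list 13 of 34 fell and 5 rose, with a median of -1.44 (4 risen and 7 fallen without 8C replicate 1, 2 and 7 without replicate 2). Wee2, the oocyte kinase that keeps CDK1 inhibited, stood at 322 and 316 FPKM in 2C and 0.0582 and 0.632 in 8C (925-fold lower, log2 fold change -7.93 ± 0.37, adjusted p = 0.00201). Mastl, a mitotic kinase, fell from 51.6 and 49.2 to 7.98 and 8.10, Pttg1 (securin, the inhibitor of separase) from 6086 and 6165 to 502 and 623, and Sycp3, a protein of the synaptonemal complex, from 437 and 395 to 59.4 and 42.1. Cyclin B1 went the other way, from 255 and 264 FPKM in 2C to 1599 and 2029.9 in 8C. So did Aurkc, the Aurora kinase of meiosis and early embryos, from 0.867 and 1.01 to 112 and 188 (159-fold higher, adjusted p = 0.00325), while Aurkb stood at 8.68 and 7.45 and 23.9 and 48.5 and was not called.

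Of 30 tested genes known for a transient burst at 2-cell genome activation, 15 fell and 0 rose, with a median of -2.67 (0 risen and 5 fallen without 8C replicate 1, 0 and 3 without replicate 2). Zscan4d, a zinc finger gene of that burst, stood at 71.1 and 63.6 FPKM in 2C and 0 and 0.817 in 8C (adjusted p = 0.00543). Zfp352 fell from 126 and 126 to 1.86 and 0.916, and Tcstv1 from 115 and 116 to 1.03 and 0.0569. Arg2, the mitochondrial arginase, fell from 39.0 and 37.7 FPKM to a listed value of 0 in both 8C libraries. Tdpoz4, also a member, was 11.2-fold higher in 8C with no overlap and no call, and a fit of 2C and 8C alone, with 2C as 1 sample, called 2 members risen. Tcstv3 stood at 142 and 164 in 2C and 0.191 and 4.21 in 8C and missed the threshold (adjusted p = 0.0686). Zscan4 and Tcstv genes lie in clusters of near-identical copies, so values of single copies are uncertain.

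**Figure D3:**
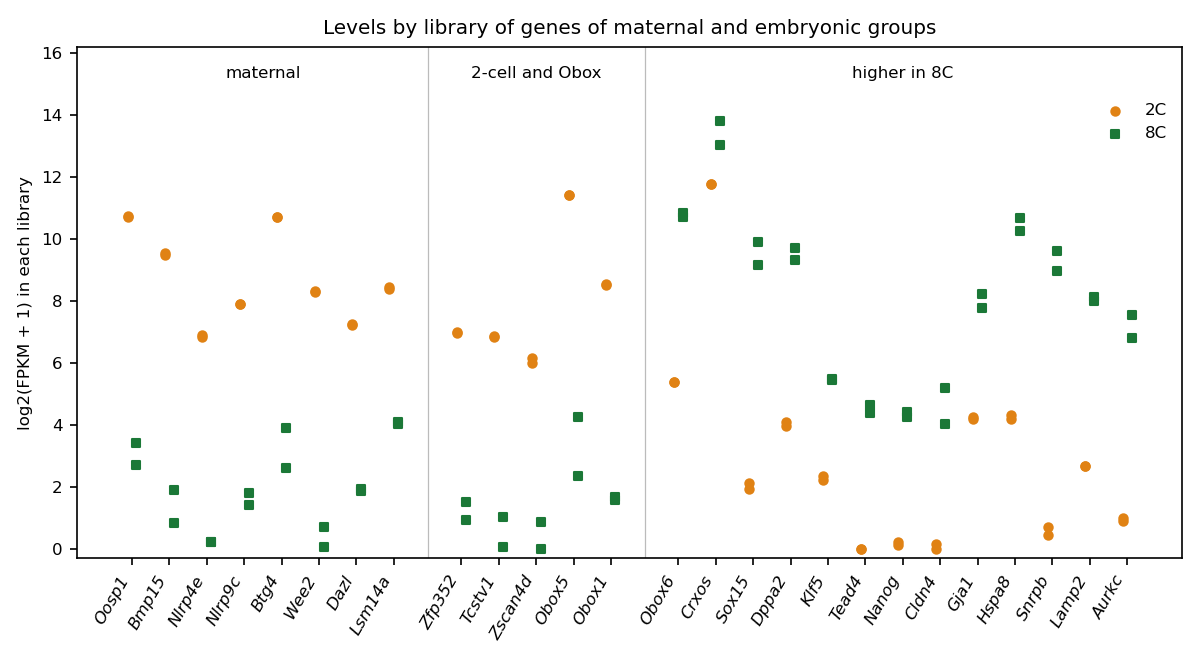
Level of named genes in each 2C library (orange circles) and each 8C library (green squares), as log2(FPKM + 1). Maternal, 2-cell and Obox genes on the left stand high in 2C and low in 8C, the genes on the right stand higher in 8C, and no gene shown has overlapping stages.

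The Obox genes are a rodent-specific family of homeobox transcription factors, and their members moved in both directions. The list also held the homeobox genes Crxos, Nobox and Cphx1. Of its 9 tested genes, 4 fell and 2 rose, Obox6 and Crxos (0 risen and 4 fallen with either 8C library left out). Obox5 stood at 2731 and 2755 FPKM in 2C and 4.10 and 18.3 in 8C, and Obox1 at 368 and 379 and 2.02 and 2.19. Obox7 went from 156 and 162 to 0.0443 and 0.624, and all 3 fell by more than 100-fold (245, 177 and 476-fold lower, adjusted p = 0.00432, 0.00434 and 0.00201). Obox6 rose instead, from 41.2 and 41.1 FPKM in 2C to 1683 and 1824 in 8C (42.6-fold, log2 fold change 5.38 ± 0.83, adjusted p = 0.0106). Crxos, a related homeobox gene, was already among the most abundant genes at 3531 and 3553 in 2C and reached 14278 and 8405 in 8C. The list as a whole took 1.24% and 1.47% of the summed FPKM in 2C and 2.30% and 1.53% in 8C. Crxos made up most of this in 8C, 14278 of 15967 FPKM in replicate 1 and 8405 of 10251 in replicate 2. In 2C it was 3531 of 6902 and 3553 of 6966, so the percents do not describe the Obox genes alone. Reads that fit several Obox copies could be split between them.

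Many genes of the egg have a close relative that works in other cells, and 31 pairs of relatives were followed. The first gene of a pair is the one better known from eggs or germ cells, except where, as for Rps27l and Rpl22l1, it is a broadly expressed ribosomal relative. Both genes were tested in 29 pairs, to which the counts here refer. In 25 of 29 the first gene's share of the pair's FPKM was lower in both 8C libraries than in both 2C libraries. The first gene fell in 16 pairs, the second rose in 16, and both happened together in 9. The first rose in 3 and the second fell in 4, and these happened together in 0. With such counts on each side, pairs of unlinked genes would also often show the first combination and seldom the second. A link within pairs was not tested. Egg-type Npm2, a histone chaperone of the egg, fell from 292 and 287 FPKM to 21.5 and 28.5 as Npm1 rose from 487 and 469.8 to 4142 and 3903. Eif4e1b, an egg form of the cap-binding protein, fell from 34.7 and 34.4 to 0.581 and 0 while Eif4e rose from 159 and 158 to 791 and 846. For the Hsp70 genes, Hspa2 fell from 43.0 and 39.9 to 2.95 and 1.15 and Hspa8 rose from 17.2 and 19.1 to 1239 and 1659. Cox6b2, the germ cell form of a cytochrome oxidase subunit, fell from 703 and 701 to 22.4 and 14.8 and Cox6b1 rose from 158 and 165 to 1426 and 1133. Tet3, which oxidises methylated cytosine after fertilisation, fell from 11.03 and 11.4 to 0.190 and 0.176, and Tet1 rose from 0.597 and 0.721 to 3.91 and 4.47. The pattern was not general: Lsm14a and Lsm14b both fell, as did Cnot6 and Cnot6l, the second gene fell in 4 pairs in all, and the first genes Aurkc, Rpl39l and Ubtfl1 rose. Ldhb, a lactate dehydrogenase subunit, fell from 368 and 403 to 11.2 and 19.7 without a call for Ldha, at 2.71 and 2.29 and 4.38 and 7.65.

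**Figure D4:**
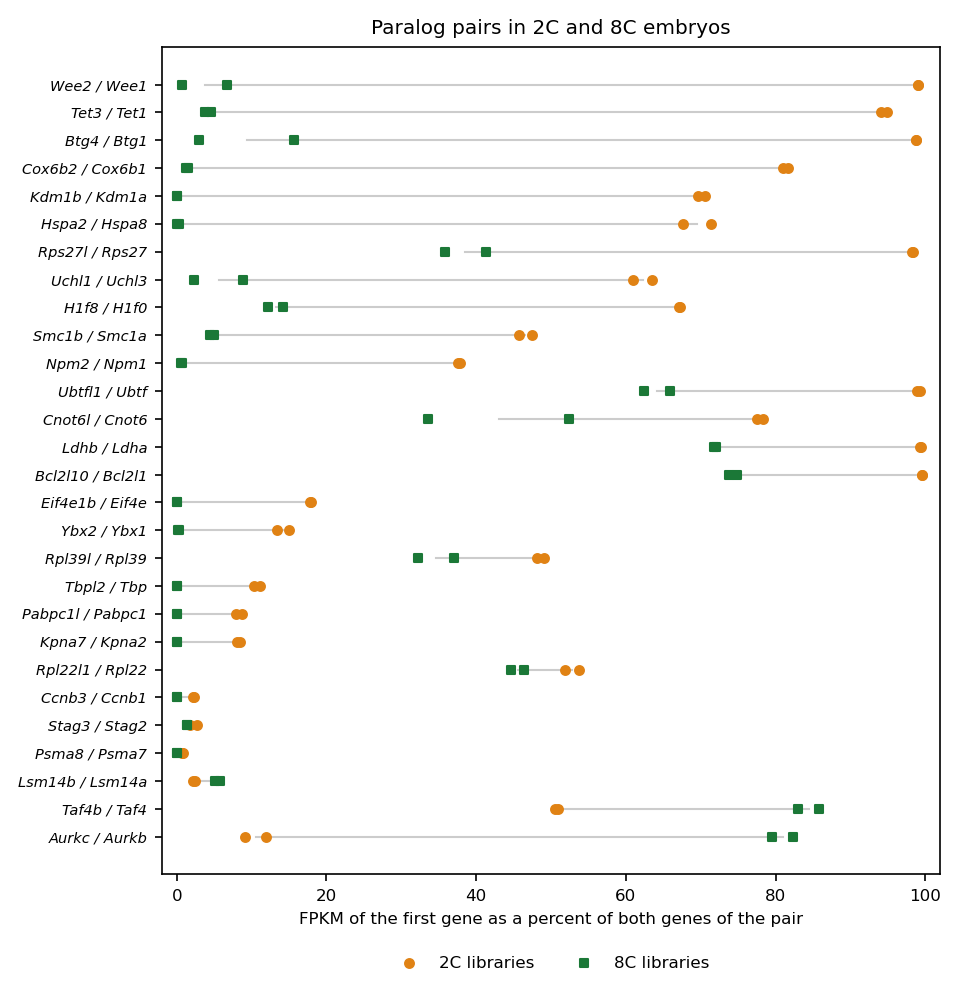
FPKM of the first gene of each pair as a percent of both genes (x axis), in each 2C library (orange circles) and each 8C library (green squares), for the pairs whose first gene reached a mean of 1 FPKM at either stage. Most first genes moved to the left in 8C, and Lsm14b, Taf4b and Aurkc at the bottom moved to the right.

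Transcription factors of genome activation and pluripotency, listed together with other genes such as Dppa3 and Dppa5a, rose more often than they fell. Of 46 tested, 15 rose and 5 fell, with a median of 1.21 (5 risen and 1 fallen without 8C replicate 1, 4 and 1 without replicate 2). Sox15, a close relative of Sox2, stood at 2.85 and 3.42 FPKM in 2C and 575 and 964 in 8C (245-fold higher, log2 fold change 7.49 ± 0.39, adjusted p = 0.00201). Sox2 went the other way, from 4.55 and 3.95 to 0 and 0.0200. Dppa2 rose from 14.7 and 16.1 to 635 and 831 and Dppa4, its partner, from 47.8 and 48.2 to 596 and 722. Nanog, a factor of the pluripotent lineage, rose from 0.0834 and 0.176 to 20.3 and 18.2 FPKM, and Klf5 from 3.67 and 4.11 to 43.8 and 43.3. Pou5f1 (Oct4) was at 0.252 and 0 in 2C and 7.78 and 16.2 in 8C, stages that did not overlap, but missed the threshold (adjusted p = 0.0668). Max, the partner of Myc, fell from 70.3 and 71.2 to 3.96 and 4.43. Dppa3 (Stella), which protects the maternal genome from demethylation, stayed among the most abundant genes at 20743 and 20644 in 2C and 24827 and 18482 in 8C, with no call (log2 fold change 0.05 ± 0.46).

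The Hippo pathway passes information on cell position to the cofactor YAP and the TEAD factors, which drive trophectoderm genes. Of 23 tested, 5 rose and 4 fell, shares of 21.7% and 17.4% against 16.4% and 20.7% of all genes (1 risen and 1 fallen with either 8C library left out). Tead4 was listed at 0 in both 2C libraries and stood at 20.04 and 24.1 FPKM in 8C (adjusted p = 0.00414). Wwtr1 (TAZ), the relative of Yap1, was at 0 and 0.0167 in 2C and 11.1 and 10.2 in 8C, while Yap1 fell from 87.6 and 86.4 to 10.1 and 10.4. Of the upstream kinases, Lats2 was listed at 0 in 2C and stood at 8.33 and 6.08 in 8C, and Stk3 (MST2) fell from 54.6 and 49.4 to 1.37 and 0.897. Their relatives were not called: Lats1 stood at 1.20 and 1.00 in 2C and 1.31 and 0.957 in 8C, and Stk4 at 2.51 and 2.37 and 7.70 and 9.89. Amotl2, an angiomotin of cell junctions, rose from 0 and 0.0186 to 8.44 and 9.08. Cdx2, the trophectoderm factor downstream, was listed at 0 in all 4 libraries and was not tested.

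Adhesion, junction and polarity genes showed 12 risen and 7 fallen of 48, with a median of -0.02, shares of 25% and 14.6% against 16.4% and 20.7% of all genes (5 risen and 2 fallen with either 8C library left out). Gja1, connexin 43 of gap junctions, stood at 18.4 and 17.5 FPKM in 2C and 297 and 219.6 in 8C (log2 fold change 3.76 ± 0.29, adjusted p = 0.00254). Cldn4, a tight junction claudin, went from 0 and 0.129 to 15.4 and 36.0, Crb3, an apical polarity protein, from 15.02 and 12.6 to 124 and 169.9, and Krt8, a keratin, from 0.323 and 0.474 to 5.77 and 6.45, and all 3 rose. Among apical polarity genes, Pard3 fell from 82.6 and 76.4 to 2.68 and 1.75, Mpp5 (Pals1) from 96.7 and 96.6 to 4.49 and 3.29 and Prkci, an atypical protein kinase C, from 28.2 and 25.9 to 2.90 and 3.07. Prkcz, the other atypical form, rose from 1.68 and 1.55 to 8.89 and 6.67, and Pard6b and Patj, lower in 8C, were not called (adjusted p = 0.0517 and 0.0707), all 3 named after their values were seen. Among actin and tubulin genes, 6 of 34 rose and 8 fell, shares of 17.6% and 23.5% against 16.4% and 20.7% of all genes (2 risen and 2 fallen with either 8C library left out). Actb rose from 89.8 and 94.1 to 641 and 605 FPKM, and the tubulin genes Tubb5 and Tubb6 fell from 61.7 and 61.1 to 6.39 and 9.002 and from 33.9 and 30.2 to 0.385 and 1.41.

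The cleavage divisions of the mouse run without centrioles. Centriole and centrosome genes fell in 10 of 20 cases with 0 risen and a median of -2.25 (0 risen and 6 fallen without 8C replicate 1, 0 and 5 without replicate 2). Plk4, the kinase that starts centriole duplication, stood at 107 and 111 FPKM in 2C and 6.66 and 7.32 in 8C (log2 fold change -3.79 ± 0.26, adjusted p = 0.00222). Cenpj, which sets centriole length, fell from 36.5 and 35.9 to 0.513 and 0.689, and the centrin Cetn2 from 117 and 114 to 21.4 and 14.2. Tubg1, gamma tubulin, was not called at 6.08 and 7.51 and 17.96 and 31.4.

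Of the 32 lists, cytosolic ribosomal proteins had the largest share of risen genes. In it, 78 of the 85 tested rose and 1 fell, with a median log2 fold change of 4.34 (64 risen and 0 fallen without 8C replicate 1, 63 and 0 without replicate 2). Rpl5 stood at 9.59 and 10.1 FPKM in 2C and 882 and 1021 in 8C (96.9-fold, log2 fold change 6.46 ± 0.22, adjusted p = 0.00201), and Rps6 at 21.2 and 23.6 and 1894 and 1834. The gene that fell was Rps27l, from 9365 and 9013 to 2462 and 2035 FPKM, while its near relative Rps27 rose from 164 and 149 to 4409 and 2898. Ribosomal protein genes have many processed pseudogenes that could take or give reads. Members just outside the threshold were also higher in 8C: Rpl37 stood at 331 and 344 in 2C and 1114 and 836 in 8C (adjusted p = 0.0672), and Rpl26 at 12.6 and 14.6 and 515 and 476 with a wide error (SE 1.98).

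Many ribosomal protein mRNAs start in a run of pyrimidines, the 5′ terminal oligopyrimidine tract through which growth signalling controls their translation. RefSeq promoters of the build GRCm38.p6 were matched to 54 of the 85 genes with a single promoter. CTTTC or CTTTT lay on the coding strand from 10 bases before to 10 after the start in 25.9% of them, against 4.3% of all 22862 promoters, 3.9% of tested genes and 4.0% of the other risen genes. The windows below run 15 bases to each side of the start of 6 risen genes that hold them (chromosome, range and strand in GRCm38.p6), shown as examples from the minority of the group with these letters, with every CTTTC or CTTTT in capitals, overlapping ones joined. A match is a description of these letters only.
Rpl7a (chr2:26910792-26910821, + strand): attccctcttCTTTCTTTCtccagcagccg
Rps6 (chr4:86857353-86857382, - strand): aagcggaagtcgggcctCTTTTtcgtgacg
Rpl18 (chr7:45718056-45718085, + strand): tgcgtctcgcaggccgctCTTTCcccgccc
Rpl27a (chr7:109519180-109519209, + strand): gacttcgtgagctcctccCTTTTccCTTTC
Rack1 (chr11:48800345-48800374, + strand): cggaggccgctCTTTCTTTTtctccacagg
Rpl15 (chr14:18270972-18271001, - strand): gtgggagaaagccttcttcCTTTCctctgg

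Of 56 translation initiation and elongation factor genes, 38 rose and 3 fell, with a median of 2.72 (21 risen and 1 fallen without 8C replicate 1, 22 and 1 without replicate 2). Eif3d, a subunit of the initiation factor eIF3 that can bind the cap, stood at 0.0436 and 0.0815 FPKM in 2C and 76.0 and 113 in 8C (log2 fold change 6.46 ± 0.45, adjusted p = 0.00222). Its 2C level was below that of 3 fragments on a transcript of 2 kb. Eif3b rose from 3.93 and 3.60 to 102 and 93.6, and Eif2s1, the subunit whose phosphorylation shuts down initiation, from 42.8 and 44.1 to 472 and 443. Eif2b3, a subunit of its exchange factor, went from 0.107 and 0 to 235 and 272. Aminoacyl-tRNA synthetases had 4 risen of 20 and 0 fallen, and a median of 1.87 (1 risen and 0 fallen without 8C replicate 1, 0 and 0 without replicate 2): Aars, for alanine, rose from 0.605 and 0.608 to 11.2 and 13.6. Kars, for lysine, was higher in both 8C libraries, 65.6 and 86.2 against 33.6 and 34.6 FPKM, and was not called (adjusted p = 0.265).

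Chaperones that fold new proteins rose in 18 of 39 cases and fell in 5, with a median of 1.58 (13 risen and 2 fallen without 8C replicate 1, 13 and 1 without replicate 2). Hspa8, the constitutive Hsp70 named above, was 79.9-fold higher in 8C (adjusted p = 0.00232), and Hsp90ab1 went from 32.2 and 31.8 to 1260.2 and 1471. Cct4, a subunit of the ring chaperonin that folds actin and tubulin, rose from 14.3 and 14.1 to 330.1 and 417 FPKM, and Stip1, which joins Hsp70 to Hsp90, from 30.6 and 30.4 to 503 and 696. Ptges3, the Hsp90 cochaperone p23, was not called and was high at both stages, 1978 and 2056 FPKM in 2C and 1938 and 1625 in 8C.

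In the splicing machinery, 22 of 56 Sm, LSm and spliceosome core genes rose and 2 fell, with a median of 1.75 (8 risen and 0 fallen with either 8C library left out). Snrpb, which encodes the core Sm proteins B and B′, stood at 0.371 and 0.625 FPKM in 2C and 504 and 793 in 8C (1302-fold, log2 fold change 8.72 ± 0.90, adjusted p = 0.00414). Snrpn, its imprinted relative, was listed at 0 in both 2C libraries and stood at 193 and 198 in 8C. Gemin2 and Smn1, of the complex that assembles Sm rings, rose from 1.15 and 1.22 to 169 and 173 and from 8.95 and 8.06 to 74.6 and 116. Other Sm genes were high throughout: Snrpg stood at 2234 and 2281 in 2C and 1578 and 1270.2 in 8C and Snrpe at 1587 and 1669 and 2652 and 1928, with no call. Among SR and hnRNP proteins, which choose splice sites, 19 of 43 rose and 4 fell, with a median of 1.47 (5 risen and 2 fallen with either 8C library left out). Tardbp rose from 2.83 and 2.64 to 84.2 and 87.6 FPKM and Srsf6 from 3.33 and 3.38 to 61.7 and 80.0. The largest falls were in genes best known from neurons, Elavl2 from 120.0 and 121 to 0.515 and 1.52 and Ptbp2 from 109 and 109 to 1.62 and 1.51.

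Of 78 mitochondrial ribosomal protein genes, 45 rose and 1 fell, with a median of 2.45 (17 risen and 0 fallen without 8C replicate 1, 15 and 0 without replicate 2). Mrpl22 stood at 70.6 and 68.3 FPKM in 2C and 1160.0 and 1159 in 8C, and Mrps10 was listed at 0 in 2C and stood at 79.0 and 60.6 in 8C. Mitochondrial protein import genes had 18 risen and 2 fallen of 32, with a median of 3.12 (9 risen and 0 fallen without 8C replicate 1, 10 and 0 without replicate 2). Tomm5, a small subunit of the outer membrane pore, rose from 229.7 and 213 to 4675 and 3399 FPKM (log2 fold change 4.16 ± 0.44, adjusted p = 0.00439), and Tomm20, a receptor of the pore, from 27.5 and 29.6 to 386 and 399.9.

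Of 39 tricarboxylic acid cycle and pyruvate entry genes, 11 rose and 9 fell, with a median of -0.20 (2 risen and 2 fallen with either 8C library left out). Early embryos use pyruvate and take up glucose later. Me1, the malic enzyme of the cytosol, stood at 212 and 209.7 FPKM in 2C and 2.48 and 5.34 in 8C (54.0-fold lower, adjusted p = 0.00308). On the rising side, Mpc2, of the mitochondrial pyruvate carrier, went from 154 and 160.2 to 818 and 824, Pdha1, of pyruvate dehydrogenase, from 17.0 and 20.2 to 177 and 154, and Mdh2, mitochondrial malate dehydrogenase, from 70.9 and 71.1 to 313 and 301. Idh3b, of isocitrate dehydrogenase, was listed at 0 in both 2C libraries and stood at 44.0 and 92.5 in 8C. Sdhb, of succinate dehydrogenase, was not called, at 10.7 and 8.73 and 77.7 and 43.5.

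Nucleotide, one-carbon and polyamine genes rose in 21 of 44 cases and fell in 8, with a median of 1.82 (11 risen and 2 fallen without 8C replicate 1, 7 and 2 without replicate 2). Sat1, which acetylates polyamines, stood at 188 and 195 FPKM in 2C and 4906 and 4312 in 8C (24.1-fold, log2 fold change 4.58 ± 0.33, adjusted p = 0.00227), and Odc1, the first enzyme of polyamine synthesis, rose from 37.1 and 39.0 to 428 and 377. Thymidylate synthase Tyms rose from 4.99 and 5.59 to 66.5 and 79.3, and Mat2a, which makes S-adenosylmethionine, from 11.2 and 9.88 to 219 and 228. Against these, Mthfd2, a mitochondrial folate enzyme, fell from 130.2 and 128 to 5.65 and 5.10 and Dut, which removes dUTP, from 124 and 119 to 17.4 and 15.97.

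Among antioxidant and glutathione genes, 10 of 36 rose and 5 fell, with a median of 0.44 (6 risen and 2 fallen without 8C replicate 1, 3 and 2 without replicate 2). The peroxiredoxin Prdx6 stood at 5.05 and 5.79 FPKM in 2C and 192 and 229 in 8C, and Prdx3, the mitochondrial form, at 0.0576 and 0 and 86.7 and 67.7. Metallothioneins Mt1 and Mt2 rose from 602 and 609.9 to 4461 and 4719.9 and from 298 and 298 to 1642 and 2024. Gstm5, a glutathione transferase, was one of the furthest fallen genes at 461 and 461 in 2C and 0.737 and 0.595 in 8C (692-fold lower, log2 fold change -8.12 ± 0.65, adjusted p = 0.00264), and catalase (Cat) fell from 5.12 and 4.73 to 0 and 0.0193. Sod1 stood at 442 and 457 and 464 and 444, with no call. Membrane transporters had 4 risen and 2 fallen of 28 (1 risen and 1 fallen with either 8C library left out). Their shares of 14.3% and 7.1% were below the 16.4% and 20.7% of all genes. Slc1a1, a glutamate transporter, rose from 1.37 and 1.53 to 26.1 and 42.4, Slc6a6, for taurine, from 2.66 and 2.57 to 30.2 and 26.7, and the cystine carrier Slc7a11 fell from 15.1 and 15.4 to 0.00607 and 0.107.

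Proton pump (V-ATPase), lysosome and autophagy genes rose in 20 of 43 cases and fell in 2, with a median of 1.96 (9 risen and 0 fallen with either 8C library left out). The 2 that fell were autophagy genes, Atg5 from 165 and 170 FPKM to 33.0 and 37.3 and Becn1 from 94.7 and 93.2 to 29.3 and 27.4. Gabarapl2, a ubiquitin-like protein of the autophagosome, stood at 86.2 and 92.5 FPKM in 2C and 3901 and 4002 in 8C (44.2-fold, log2 fold change 5.45 ± 0.32, adjusted p = 0.00201). Lamp2, of the lysosome membrane, rose from 5.39 and 5.47 to 277 and 255, and the protease Ctsa from 0.983 and 1.01 to 133 and 199. Atp6ap1, an accessory subunit of the proton pump, rose from 0.118 and 0.249 to 20.2 and 32.7, while Atp6v1f was not called at 399.7 and 397 and 183 and 117. Of the Atp6 genes of the pump, only Atp6ap1, Atp6v0c and Atp6v1d rose, and the rest were not called. The risen count of the list thus comes mostly from lysosome and autophagy genes.

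Nuclear pore genes had 6 risen and 4 fallen of 30, shares of 20% and 13.3% against 16.4% and 20.7% of all genes (0 risen and 0 fallen without 8C replicate 1, 1 and 0 without replicate 2). Nup43 stood at 28.7 and 27.9 FPKM in 2C and 253 and 291 in 8C, and Nup62, of the central channel, at 79.0 and 79.6 and 11.03 and 17.1. Karyopherin and Ran system genes had 14 risen and 5 fallen of 29, with a median of 1.46 (1 risen and 3 fallen without 8C replicate 1, 2 and 3 without replicate 2). Ran, the GTPase that gives transport its direction, rose from 75.1 and 75.3 to 628 and 569.6 FPKM (log2 fold change 2.98 ± 0.22, adjusted p = 0.00230), and its partners Ranbp1 and Rangap1 from 75.2 and 72.2 to 796 and 608 and from 0.981 and 0.945 to 23.0 and 22.5. The importins moved in both directions: Kpna7, an importin of oocytes, fell from 13.2 and 13.1 to a listed 0 in both 8C libraries, Kpna3 fell from 149 and 148 to 11.8 and 7.76, and Kpna2 rose from 143 and 149.7 to 346 and 470.2.

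Histone and histone chaperone genes had 11 risen and 6 fallen of 43, with a median of 0.42 (7 risen and 1 fallen without 8C replicate 1, 6 and 1 without replicate 2). H1f8, the oocyte linker histone, stood at 47.8 and 48.6 FPKM in 2C and 1.68 and 1.96 in 8C, and H1f5, a somatic linker histone, was listed at 0 in 2C and stood at 39.8 and 21.0 in 8C. Set, a histone chaperone, rose from 203 and 197 to 2197 and 2208. Chromatin modifiers had 10 risen and 10 fallen of 62 and a median of 0.23, shares of 16.1% and 16.1% against 16.4% and 20.7% of all genes (2 risen and 4 fallen with either 8C library left out). Bmi1, of Polycomb repressive complex 1, fell from 594 and 577 to 8.25 and 11.4 (log2 fold change -5.78 ± 0.32, adjusted p = 0.00201), and Suz12, of complex 2, from 406 and 406 to 72.3 and 69.4. Brdt, a bromodomain protein of the germ line, fell from 628 and 642 to 7.63 and 10.98, and the acetyltransferase Kat8 rose from 0.534 and 0.499 to 26.1 and 21.4. Kdm1b, the oocyte histone demethylase, stood at 39.4 and 38.2 FPKM in 2C and had a listed value of 0 in 8C, without a call (SE 1.66, adjusted p = 0.0637).

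Xist, the RNA that silences an X chromosome, was listed at 0 in both 2C libraries and stood at 2.91 and 2.92 FPKM in 8C (adjusted p = 0.0278), and its antisense partner Tsix rose from 3.79 and 2.60 to 24.6 and 16.9. The library preparation named in the labels does not mark strand, so reads of the overlapping pair cannot be told apart. Of 9 tested X inactivation genes, 4 rose and 1 fell (0 risen and 0 fallen with either 8C library left out). The 4 were Xist and Tsix, which share reads, and Hnrnpu and Hnrnpk, which are also counted among the SR and hnRNP genes. Yy1, Rlim and Smchd1 were among those not called. Imprinted genes had 5 risen and 2 fallen of 23, with a median of -0.55 (3 risen and 2 fallen with either 8C library left out). Igf2r, the growth-restraining receptor that clears IGF2, stood at 2.49 and 2.53 FPKM in 2C and 106 and 109 in 8C (42.9-fold, log2 fold change 4.95 ± 0.36, adjusted p = 0.00229), and Impact rose from 1.15 and 1.38 to 47.1 and 37.6. Plagl1, a zinc finger factor, fell from 5.0 and 5.08 to 0.351 and 0.

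Ligands and receptors of growth factors and cytokines fell more often than they rose, 14 of 37 against 4, with a median of -1.10 (2 risen and 5 fallen without 8C replicate 1, 1 and 5 without replicate 2). Egfr, the receptor of epidermal growth factor, stood at 38.6 and 38.3 FPKM in 2C and 0.00938 and 0 in 8C (adjusted p = 0.0105). Jag1, a Notch ligand, fell from 47.3 and 46.4 to 2.29 and 1.86, and Bmpr2, a receptor of bone morphogenetic proteins, from 40.5 and 39.6 to 2.38 and 1.22. Fgf4, the ligand that the inner cell mass later sends to its neighbours, was listed at 0 in both 2C libraries and rose to 2.68 and 7.80 FPKM.

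The direction of change differed with gene size. The median genomic span in mm9 was 12.7 kb for risen genes, 30.6 kb for fallen genes and 19.8 kb for genes that were not called. Across quintiles of the tested genes by span, the share that rose went from 22.7% in the shortest quintile (up to 6.22 kb) to 6.6% in the longest (57.3 kb or more), and the share that fell went from 14.9% to 33.2%. The median log2 fold change was 0.53 in the shortest quintile and -1.19 in the longest. Transcript length, by which FPKM is divided, moved with span: by quintiles of length the risen share went from 24.2% to 9.1% and the fallen share from 17.3% to 26.7%. Without the ribosomal protein genes, the risen genes still had a median span of 13.3 kb. The part of transcript length in the pattern was not tested.

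**Figure D5:**
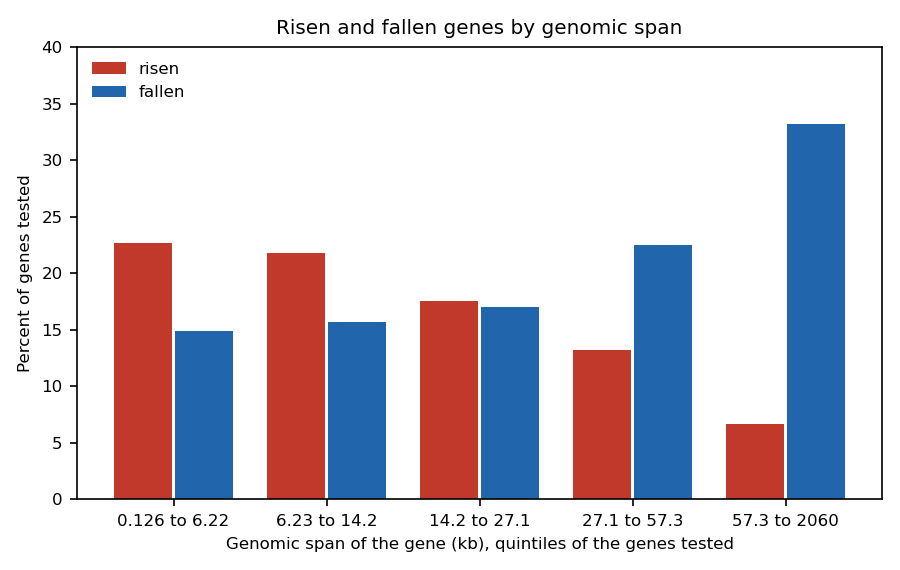
Percent of tested genes called risen (red) and fallen (blue) in each quintile of genomic span (x axis, kb, mm9), with 2366 or 2367 genes a quintile. The risen share drops from 22.7% to 6.6% and the fallen share climbs from 14.9% to 33.2% from the shortest to the longest genes.

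Promoters of the most strongly fallen genes were poor in CpG. In RefSeq promoters of 300 bases (250 before the start to 50 after it, GRCm38.p6), the median number of CpG dinucleotides was 7 over all 22862 promoters, 20 over 7693 tested genes with a single promoter, 21 over risen genes and 19 over fallen genes. The strongest changes were taken from called genes with a single promoter and no value of 0 in the 4 libraries. Among these, the median was 3 for the 41 that fell over 100-fold from at least 100 FPKM. It was 18 for the 28 that rose over 100-fold to at least 100 FPKM. The letters CCGGAAGT, searched on both strands, lay in 14.5% of risen, 5.0% of fallen and 8.5% of uncalled genes' promoters, against 8.8% of tested genes and 3.9% of all promoters. The stretches below, 120 bases before to 10 after the start, are examples from 4 of the furthest fallen and 4 of the furthest risen genes. Each CG is in capitals. Ifitm3, Tcl1b3, Ak6, Znrd2 and Sycn had a 0 in at least 1 library and so lay outside the 41 and the 28. The fallen genes come first.
Omt2a (chr9:78314039-78314168, - strand): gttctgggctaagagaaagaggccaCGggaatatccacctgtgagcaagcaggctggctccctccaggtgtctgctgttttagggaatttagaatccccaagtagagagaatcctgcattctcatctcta
Oosp2 (chr19:11660550-11660679, - strand): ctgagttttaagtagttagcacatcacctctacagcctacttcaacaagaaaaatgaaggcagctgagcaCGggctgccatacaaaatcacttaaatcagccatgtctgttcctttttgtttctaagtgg
Ifitm3 (chr7:141010735-141010864, - strand): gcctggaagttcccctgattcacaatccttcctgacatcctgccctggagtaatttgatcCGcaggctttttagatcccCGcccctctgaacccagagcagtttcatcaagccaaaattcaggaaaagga
Tcl1b3 (chr12:105190925-105191054, + strand): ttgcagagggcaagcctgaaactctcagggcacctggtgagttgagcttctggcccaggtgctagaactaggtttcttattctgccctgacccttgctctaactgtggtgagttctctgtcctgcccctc
The risen genes follow.
Ak6 (chr13:100651223-100651352, + strand): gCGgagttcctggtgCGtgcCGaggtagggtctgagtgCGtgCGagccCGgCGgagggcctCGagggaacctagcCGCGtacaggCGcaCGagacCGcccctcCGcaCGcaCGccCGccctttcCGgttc
Mrpl20 (chr4:155802758-155802887, + strand): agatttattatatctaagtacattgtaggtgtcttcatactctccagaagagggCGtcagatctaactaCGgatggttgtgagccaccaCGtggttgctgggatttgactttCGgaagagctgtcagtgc
Znrd2 (chr19:5731723-5731852, - strand): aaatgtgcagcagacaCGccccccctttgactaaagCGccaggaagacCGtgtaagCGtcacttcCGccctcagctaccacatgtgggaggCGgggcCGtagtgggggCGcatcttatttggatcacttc
Sycn (chr7:28540765-28540894, + strand): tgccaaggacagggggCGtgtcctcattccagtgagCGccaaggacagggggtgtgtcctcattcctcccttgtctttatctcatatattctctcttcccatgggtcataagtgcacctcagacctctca
These stretches hold 1, 1, 2 and 0 CpG in the fallen genes and 18, 4, 8 and 2 in the risen genes. Sycn, a risen gene, is thus as poor in CpG as the fallen ones in this window, and Ak6 is at the rich end.

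Fallen genes also lay side by side in families. On chromosome 9 between 109 and 110 Mb (mm9), 12 of 19 tested genes fell, 11 of them Fbxw genes that encode F-box proteins of the oocyte. Fbxw24 stood at 631 and 619.6 FPKM in 2C and 14.3 and 18.99 in 8C, and Fbxw28 at 266 and 284 and 5.92 and 7.99. On chromosome 4 between 143 and 144 Mb, 12 of 20 fell, all of the Oog and Pramel families of leucine-rich repeat proteins, among them Oog3, from 2051 and 2044 to 30.4 and 36.0. On chromosome 12 between 106 and 107 Mb, 6 of 13 fell, all Tcl1 family genes, including Tcl1b3, from 767 and 694 to 0 and 3.33. These windows were chosen after their values were seen, for fallen genes of 1 family or 2, so their counts are a description, and copies within a family can share reads. Other windows held more fallen genes than that of chromosome 12, such as 9 of 25 on chromosome 15 between 98 and 99 Mb and 8 of 25 on chromosome 11 between 101 and 102 Mb, mostly of different families.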

How the data were processed

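RNA was measured in 8 mouse embryo libraries, per the labels of total RNA extracted with Trizol, amplified with KAPA HiFi, made into libraries with Nextera XT and sequenced on a BGISEQ500 machine. Per the submitters' processing notes, the authors used HISAT2 (listed with version 4.8.2), Cufflinks 2.2.1 and the genome build mm9. Aligner settings and annotation release were not given in the sources used here. What the authors deposited is a table of FPKM, 1 value per RefSeq transcript entry and library. No read was reprocessed.

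Of 41876 entries, 41685 matched a gene symbol, and FPKM were summed by symbol to 24732 genes. The 191 unmatched entries, with 0.0650% to 0.253% of a library's FPKM, were left out. The 335 accessions listed at several loci make genes with near-identical copies uncertain. Start coordinates were read as counted from 0 and are printed from 1. Depth was estimated from the steps by which low FPKM differ. At the depth found, 65.1% to 70.8% of values came within 0.05 of whole fragments, too few to recover counts. The amplified fragments carry no molecular identifier and are not independent.

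Genes that reached 1 FPKM in 2 of 8 libraries were tested as log2(FPKM + 1), two-sided, with limma 3.58.1 in R 4.3.3, with a trend on mean expression and Benjamini-Hochberg adjustment over all genes tested. The 2C libraries were averaged, which left 7 samples in 4 groups and 3 residual degrees of freedom, and 2C, alone, was taken to vary as the other groups do. The fit was tested on simulated data. No sequence or coordinate of GRCm38.p6 was mixed with mm9.

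The 2 stages, the 32 gene lists, the 7 marker lists and the 31 pairs were chosen with earlier results of these data known, and list medians and counts are a description. Named genes were the 12 called genes furthest each way with at least 10 FPKM in the higher stage, stages that do not overlap and no predicted symbol, up to 8 called members with the smallest p and 3 uncalled members with the highest mean per list, all pair and marker genes, and a fixed set. Genes outside this rule were named after values were seen. The grounds were start-site sequence, gene family, role in polarity, part in the proton pump or fall in a list that mostly rose. Alternatives covered pseudocount, filter, scaling, how 2C counts, the groups fitted, the trend, the value of a gene and each library left out.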

Additional observations from a re-analysis of the deposited data

How the results depend on the processing

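The count of called genes, 4382, lay between 3487 and 5569 under other pseudocounts, filters, scalings, priors and gene values and with a CX group or the CX groups left out while 2C counted as 1 sample. Counting the 2C libraries as separate samples raised it to 6679 (3079 risen, 3600 fallen), and to 7859 with the CX libraries left out as well (3628 risen, 4231 fallen). With the replicate number as a block it was 6614 (3029 risen, 3585 fallen), and the block changed no named call against the same fit without it. Deviations of same-numbered libraries correlated between -0.001 and 0.108, so the numbers were not taken to pair samples. Leaving out one library gave 1411 to 5606 called, 581 to 2520 risen and 830 to 3086 fallen, the lowest values without an 8C library. Of 156 gene list counts without an 8C library, 116 moved by over 1.5 times. Quantile normalization moved the median of all genes from -0.03 to 0.08, and median-of-ratios scaling to 0.06, and the risen share of calls went from 44.2% to 48.6% and 48.7%. No named gene that was called changed sign under any of these. Among uncalled genes the log2 fold change of Padi6 was 0.12 under quantile normalization, 0.15 under median-of-ratios scaling and -0.41 to 0.24 with an 8C library left out. Sod1 was at -0.86 under quantile normalization, at -0.01 without 2C replicate 1 and at -0.02 to 0.05 with an 8C library left out, and Snrpe at -0.49 under quantile normalization. Ptges3 and Zp3 were at 0.06 under median-of-ratios scaling, Dppa3 between -0.16 and 0.26 with an 8C library left out, Ldha at -1.55 with its highest transcript entry, and Omt2b between -9.36 and 6.99 with a 2C library left out. The cause of these changes was not tested, other than for Omt2b, which is listed at 0 in the 2C library that remained.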

Other observations

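Markers of cells outside the embryo were low but not absent, and their part in the results was not tested. The protamine genes Prm1 and Prm2, which pack DNA in sperm, were the 2 tested members of 9 sperm and testis markers, with 0 called by limma and 0 at an unadjusted p under 0.05, and the list summed to 19.6 and 18.7 FPKM in the 2C libraries and to 0 in both 8C libraries. Of 8 blood and immune markers, 3 were tested and 0 called by limma (unadjusted p under 0.05 for 1 higher and 1 lower in 8C), and the alpha globin gene Hba-a1 stood at 106.1 and 103.6 FPKM in 2C and 10.3 and 28.8 in 8C. Of 7 feeder or stromal markers, 2 were tested, with 0 called and 0 at an unadjusted p under 0.05 in limma, and the list summed to 0.900 and 6.43 FPKM in 2C and 1.23 and 0.108 in 8C. Of 8 tested markers of the trophectoderm and inner cell mass of the blastocyst, 3 rose and 1 fell (0 of each with either 8C library left out), and the list summed to 17.7 and 17.5 FPKM in 2C and 35.3 and 43.7 in 8C. With 2 libraries a group, no library was tested as an outlier.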
